A study of Homo sapiens with 6 samples.

Results

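Messenger RNAs of sterol and fatty acid synthesis were examined in MCF-10A cells with and without MBD2 overexpression. A gene was a member if it encodes an enzyme of the path from acetyl-CoA to cholesterol, an enzyme of fatty acid synthesis, or a protein that controls or carries sterols in the sterol regulatory element-binding protein (SREBP) pathway, and if a probe set of the array was annotated with its symbol alone. Of 35 such genes listed, 32 were measured among the 19775 genes tested. FDFT1, CYP51A1 and FADS1 had no probe set with a single symbol and are not analysed here. Where a gene had several probe sets, the brightest on average across the 6 arrays was used.

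Cholesterol and fatty acids are built from acetyl-CoA, and their synthesis is held in step with the sterol content of the membranes. When sterols are scarce, SCAP escorts the SREBP precursors from the endoplasmic reticulum to the Golgi, where proteases release a transcription factor that activates the genes of both pathways. When sterols are plentiful, the INSIG proteins hold SCAP in the endoplasmic reticulum. Epithelial cells in culture make sterols and fatty acids for growth and membrane renewal, and dividing cells draw on both pathways.

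MCF-10A cells are immortalized but not transformed and come from breast epithelium; they were grown here in mammary epithelial basal medium with its supplements. The 3 control arrays came from MCF-10A cells without the MBD2 virus, and the 3 MBD2 arrays from MCF-10A cells infected with a lentivirus made in HEK293 cells that carries MBD2, a methyl-CpG binding protein. The series design calls the control cells non-infected and the replicates technical, whereas the methods of the study name an empty control virus and biological replicates. No source used here names separate cultures or the promoter of the virus, so p-values cover no spread beyond that among these arrays. Affymetrix Human Genome U133 Plus 2.0 arrays gave 1 log2 value per probe set and array. MBD2 itself had log2 values of 8.92, 9.03 and 9.68 on control arrays 1, 2 and 3 and of 12.17, 11.72 and 12.50 on MBD2 arrays 1, 2 and 3. MBD2 was 2.92 higher on the log2 scale (standard error 0.28, adjusted p = 0.0119 by limma), but only 0.73 higher as the mean of all its probe sets and 0.111 higher in a probe set with no name ending for shared sequence (adjusted p = 0.636). With 1 array omitted at a time the adjusted p of MBD2 lay between 0.00659 and 0.0838, over 0.05 if the omitted one was control 1, control 2 or MBD2 array 3.

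The arrays of a group were not equally far apart. Control arrays 1 and 2 differed by more than 2-fold in 5 genes and MBD2 arrays 2 and 3 in 95, whereas control arrays 1 and 3 differed in 1572 and MBD2 arrays 1 and 2 in 2877. With each of the near-identical pairs averaged into 1 value, no gene of the array was called by limma, against 248 higher and 296 lower with all 6 arrays. At an unadjusted p under 0.05 there were 1507 genes with the pairs averaged and 3615 with all arrays. The hybridization control probe sets averaged 10.96 to 11.33 on the control arrays and MBD2 array 1, and 9.944 and 10.01 on MBD2 arrays 2 and 3, and the part of this difference in the results was not tested. The 3' minus 5' difference of GAPDH probe sets, a sign of RNA length, was 2.03, 2.52 and 1.83 log2 units on control arrays 1, 2 and 3 and 1.84, 1.49 and 1.52 on MBD2 arrays 1, 2 and 3. For ACTB it was 3.95, 4.57 and 3.62 on the control arrays and 3.93, 3.45 and 3.44 on the MBD2 arrays. Both were lowest on MBD2 arrays 2 and 3, and their part in the results was not tested either. Of 6 basal mammary markers 4 were measured, at log2 values of 8.04 to 14.4 on the control arrays and 9.82 to 14.0 on the MBD2 arrays, and none was called. The basal keratins KRT5 and KRT14 were nonetheless lower on every MBD2 array than on every control array (log2 fold changes -1.26 and -0.56, adjusted p = 0.145 and 0.209 by limma), and ITGB4 was higher on every MBD2 array by a narrow gap (0.81, adjusted p = 0.414 by limma). The luminal keratin KRT18 lay at 9.28, 8.80 and 9.18 on the control arrays and at 9.46, 11.30 and 11.49 on the MBD2 arrays (1.66, adjusted p = 0.194 by limma). The part of these marker differences in the results was not tested. Among 4 markers of HEK293 cells WT1 was called higher, from 5.20 to 6.10 on the control arrays to 7.48 to 8.64 on the MBD2 arrays, while NEFL, NEFM and PAX2 lay between 3.54 and 4.59 on all arrays. The summed level of these 4 markers was 17.22 to 18.57 on the control arrays and 19.43 to 20.52 on the MBD2 arrays. Of its parts, WT1 had a log2 fold change of 2.37, whereas those of NEFL, NEFM and PAX2 were -0.27, -0.03 and -0.09. The part of these marker values in the results was not tested. No other marker of luminal, fibroblast, endothelial or leukocyte cells was called, although the fibroblast genes DCN and LUM reached 12.6 and 9.63 on MBD2 array 1 against 7.59 and 4.03 on MBD2 array 2. In the probe set used, the lowest value of any member was 5.68. Control probe sets of a transcript that was not added lay at 2.93 to 3.67. The endothelial marker PECAM1 and the leukocyte marker CD74, however, reached 6.14 and 6.80 on the control arrays. Values in that range, such as 5.68 to 6.02 for TM7SF2 on the MBD2 arrays, do not show detection by themselves.

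In the fit of all 6 arrays, expression of 4 members fell and of none rose in the MBD2 arrays. The transcripts that fell were those of both SREBP precursors, SREBF1 and SREBF2, of HMGCS1, which makes HMG-CoA at the entry of the mevalonate pathway, and of TM7SF2, a sterol reductase on the way from lanosterol to cholesterol. A gene was called at an adjusted p under 0.05 and a change of at least 1.5-fold, which held for 1.25% of all genes in the higher and 1.5% in the lower direction. The remaining 28 members did not pass. In 17 of the 32 members every MBD2 array lay below every control array, in none did every MBD2 array lie above, and in 15 the groups overlapped. Over all genes tested, 14.6% were separated downward and 10.4% upward. At an unadjusted p under 0.05, 17 members were lower and 0 higher, against 9.59% and 8.69% of all genes. By the fold rule of the study's methods, applied to each MBD2 array against the control mean, 1 member (TM7SF2) was lower and 0 were higher, against 1.81% and 3.47% of all genes.

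The members' median log2 fold change was -0.527, and 25 of 32 (78.1%) were below 0. For all genes tested the median was -0.0187 and 53.0% were below 0. By role, the median was -0.824 for the 9 genes from squalene to cholesterol, -0.451 for the 6 SREBP regulators and the sterol carrier, -0.248 for the 10 genes of fatty acid and acetyl-CoA metabolism and -0.157 for the 7 genes of the mevalonate arm. All 9 genes of the squalene to cholesterol arm were below 0, against 4 of 7, 5 of 6 and 7 of 10 in the mevalonate, regulator and fatty acid groups. The differences between these groups were not tested.

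**Figure D1:**
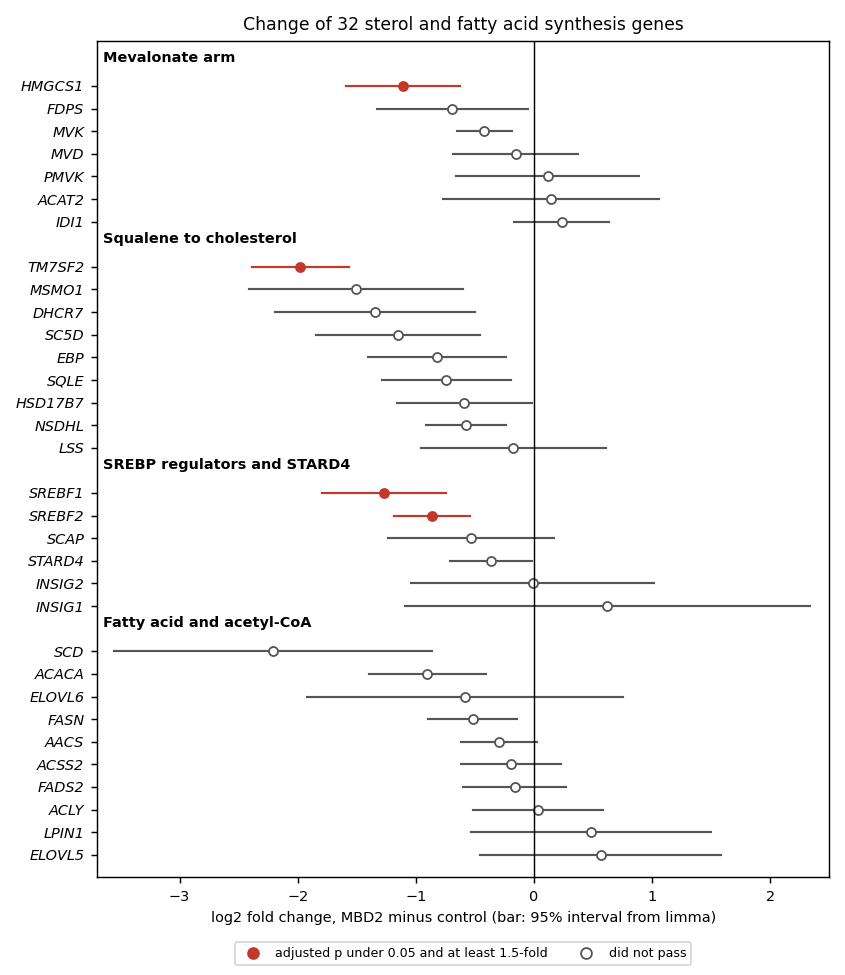
Log2 fold change (MBD2 minus control, x axis) of the 32 members measured, grouped by role; points are differences of the means of 3 arrays each, bars are 95% intervals from limma, and filled red points passed the test. The 4 filled points all lie left of 0, and the widest interval is that of INSIG1.

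Among the regulators SREBF1 and SREBF2 fell, while SCAP, INSIG1, INSIG2 and STARD4 did not pass the test. SREBF1 encodes SREBP forms that act more on fatty acid genes than the product of SREBF2 does. Its log2 values were 8.71, 8.80 and 8.42 on the control arrays and 7.49, 7.67 and 6.96 on the MBD2 arrays. Every MBD2 array was below every control array, with a gap of 0.757 between the groups that was wider than the spread of either. The mean fell from 8.64 ± 0.20 to 7.37 ± 0.37 (SD, n = 3 each), which is 2.41-fold or -1.27 in log2 units (standard error 0.22, adjusted p = 0.0437 by limma). Its other probe set was also separated downward, with a difference of -0.35.

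SREBF2 encodes the SREBP that acts mostly on cholesterol genes. Its log2 values were 8.31, 7.97 and 8.16 on the control arrays and 7.26, 7.40 and 7.18 on the MBD2 arrays, and the groups did not overlap. The mean fell from 8.15 ± 0.17 to 7.28 ± 0.11 (SD, n = 3 each), which is 1.82-fold or -0.86 in log2 units (standard error 0.13, adjusted p = 0.0359 by limma). Its other 2 probe sets differed by -0.67, again without overlap, and by -0.37, where MBD2 array 1 lay among the controls. When 1 array was left out in turn, the adjusted p ran from 0.0225 to 0.184 for SREBF1 and from 0.02 to 0.163 for SREBF2, and it was under 0.05 only without MBD2 array 1.

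SCAP, the escort of the SREBP precursors, had log2 values of 9.51, 9.41 and 8.90 on the control arrays and 9.24, 8.67 and 8.30 on the MBD2 arrays. MBD2 array 1 lay above control array 3, and the difference of -0.54 in log2 units (standard error 0.29, adjusted p = 0.384 by limma) did not pass. INSIG1, the sterol-induced retention protein and itself an SREBP target, had log2 values of 10.75, 10.97 and 9.45 on the control arrays and 12.38, 10.07 and 10.58 on the MBD2 arrays. A single array, MBD2 array 1, carried the high value, and all 3 probe sets of INSIG1 were highest on it. The log2 fold change of 0.62 had a 95% interval of -1.09 to 2.33, and without MBD2 array 1 it was -0.0615. INSIG2, the second retention protein, had log2 values of 9.04, 9.19 and 8.89 on the control arrays and 9.90, 8.20 and 8.97 on the MBD2 arrays. Its MBD2 values lay on both sides of the controls, with a log2 fold change of -0.01 and an interval of -1.04 to 1.01. STARD4, a soluble carrier that moves cholesterol between membranes, lay between 9.13 and 9.19 on the control arrays and at 9.07, 8.71 and 8.63 on the MBD2 arrays. The groups were apart by 0.0572, and the log2 fold change of -0.36 did not pass (adjusted p = 0.258 by limma).

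The promoters of the 4 genes that fell are shown because SREBPs act through short elements near the start of their targets, usually beside sites for the general factors NF-Y and Sp1. Each sequence covers the 250 bases before a RefSeq transcript start, on the gene's strand in build GRCh38.p14. Capitals mark matches on either strand to the sterol regulatory element TCACNCCAC, the NF-Y motif CCAAT and the Sp1 motif GGGCGG. HMGCS1 lies at chr5:43313413-43313662 on the minus strand, TM7SF2 at chr11:65111622-65111871 on the plus strand, SREBF1 at chr17:17836987-17837236 on the minus strand and SREBF2 at chr22:41832855-41833104 on the plus strand.
HMGCS1: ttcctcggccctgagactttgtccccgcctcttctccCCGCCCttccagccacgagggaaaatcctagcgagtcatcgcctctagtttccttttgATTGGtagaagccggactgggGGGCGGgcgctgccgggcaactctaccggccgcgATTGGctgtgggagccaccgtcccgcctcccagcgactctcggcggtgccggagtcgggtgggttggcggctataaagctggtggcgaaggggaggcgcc
TM7SF2: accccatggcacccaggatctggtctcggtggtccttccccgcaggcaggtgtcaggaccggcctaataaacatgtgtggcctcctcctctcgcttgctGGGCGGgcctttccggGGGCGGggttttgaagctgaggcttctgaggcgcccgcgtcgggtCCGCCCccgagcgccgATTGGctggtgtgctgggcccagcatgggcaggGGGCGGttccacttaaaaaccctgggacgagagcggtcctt
SREBF1: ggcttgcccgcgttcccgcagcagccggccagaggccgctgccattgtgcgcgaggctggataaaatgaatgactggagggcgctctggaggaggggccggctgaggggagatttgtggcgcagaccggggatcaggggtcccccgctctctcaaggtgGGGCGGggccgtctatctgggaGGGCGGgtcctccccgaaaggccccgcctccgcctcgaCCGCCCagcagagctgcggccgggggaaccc
SREBF2: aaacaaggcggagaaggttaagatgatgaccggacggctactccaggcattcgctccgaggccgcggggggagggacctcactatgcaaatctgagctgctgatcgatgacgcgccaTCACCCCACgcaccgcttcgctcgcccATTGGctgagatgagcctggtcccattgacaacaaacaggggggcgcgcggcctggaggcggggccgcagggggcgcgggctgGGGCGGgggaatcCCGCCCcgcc

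SREBF2 held the only match to TCACNCCAC among the 29 members with a promoter window, seen in its sequence as the run TCACCCCAC. RefSeq windows of 250 bases before to 50 after the start were searched, and ACAT2, FASN and SQLE had none. That is 3.45% of members, against 1.43% of the 15384 tested genes with a window. HMGCS1 has 2 RefSeq windows, and the upstream one shown held 2 matches to CCAAT and 2 to GGGCGG before its start, while the other, not shown, held 2 further matches to GGGCGG before its own start. For CCAAT and GGGCGG in turn, the sequences shown held 1 and 4 matches for TM7SF2, 1 and 2 for SREBF2, and 0 and 3 for SREBF1. A further GGGCGG match of SREBF2 began at position -5 and ran across its start. CCAAT was in a window of 22 members (75.9%) and GGGCGG in one of 27 (93.1%), against 41.7% and 64.6% of the tested genes. The E-box CACGTG was in a window of 5 members (17.2%), against 10.9%. These matches describe letters in the windows and do not show binding. Variant forms of the elements and starts outside the windows were not searched, so absence of a match does not show absence of an element.

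The mevalonate arm turns acetyl-CoA into farnesyl diphosphate, and its members differed from one another. HMGCS1 had log2 values of 8.34, 8.75 and 8.94 on the control arrays and 7.79, 7.53 and 7.38 on the MBD2 arrays. The groups did not overlap and were 0.55 apart. Its mean fell from 8.68 ± 0.31 to 7.57 ± 0.21 (SD, n = 3 each), which is 2.16-fold or -1.11 in log2 units (standard error 0.20, adjusted p = 0.0491 by limma). A second probe set of HMGCS1, with a mean log2 value of 4.57, differed by 0.0066, so the mean of both differed by -0.55 (adjusted p = 0.0754 by limma). Without 1 array the adjusted p of HMGCS1 ran from 0.0168 to 0.209 and was under 0.05 only without MBD2 array 1.

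MVK, the kinase that phosphorylates mevalonate, had little spread within either group. It lay at 8.65, 8.70 and 8.74 on the control arrays and at 8.31, 8.21 and 8.32 on the MBD2 arrays. These groups did not overlap, but the difference of -0.42 in log2 units (standard error 0.095, adjusted p = 0.088 by limma) missed both criteria. FDPS, the farnesyl diphosphate synthase at the end of the arm, lay at 11.00, 11.28 and 10.98 on the control arrays and at 9.84, 10.78 and 10.57 on the MBD2 arrays. It was lowest on MBD2 array 1, and the log2 fold change of -0.69 did not pass (adjusted p = 0.242 by limma).

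The other 4 members of the arm overlapped between groups. ACAT2, the thiolase that joins acetyl-CoA units, had log2 values of 8.07 to 8.18 on the control arrays and of 7.38, 8.73 and 8.67 on the MBD2 arrays. MBD2 array 1 lay below and the other MBD2 arrays above all controls. PMVK, the second kinase of the arm, had log2 values of 7.31, 7.25 and 8.19 on the control arrays and 7.28, 7.98 and 7.83 on the MBD2 arrays. Control array 3 stood apart from its group in PMVK. MVD, the decarboxylase, ranged from 5.95 to 6.49 on the control arrays and from 5.69 to 6.26 on the MBD2 arrays. IDI1, which isomerizes isopentenyl diphosphate, ranged from 11.21 to 11.45 on the control arrays and from 11.30 to 11.81 on the MBD2 arrays. The log2 fold changes of ACAT2, PMVK, MVD and IDI1 were 0.14, 0.11, -0.16 and 0.23, with 95% intervals of -0.77 to 1.06, -0.66 to 0.89, -0.68 to 0.37 and -0.17 to 0.63. Centring on housekeeping genes turned the first 2 and IDI1 below 0.

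All 9 genes of the arm from squalene to cholesterol had a lower mean on the MBD2 arrays, and 1 of them, TM7SF2, passed the test. In 7 of its 9 genes the MBD2 arrays lay below all control arrays, and 8 of 9 were lower at an unadjusted p under 0.05, against 14.6% and 9.59% of all genes. TM7SF2 had log2 values of 8.09, 7.60 and 7.91 on the control arrays and 6.02, 5.68 and 5.96 on the MBD2 arrays. The gap of 1.58 between its groups was over the full spread of either. Its mean fell from 7.87 ± 0.25 to 5.89 ± 0.18 (SD, n = 3 each), which is 3.94-fold or -1.98 in log2 units (standard error 0.17, adjusted p = 0.0101 by limma). TM7SF2 has a single probe set, whose name carries an ending for sequence shared between transcripts. Leaving out 1 array gave adjusted p-values of 0.00436 to 0.0661, above 0.05 when the array omitted was control 1, control 2 or MBD2 array 3.

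MSMO1, SC5D and DHCR7, a methyl oxidase of the early sterol ring, the lathosterol oxidase and the reductase of the final step, had the next larger changes of the arm. MSMO1 lay at 13.04, 12.92 and 12.20 on the control arrays and at 11.92, 10.84 and 10.87 on the MBD2 arrays. SC5D lay at 10.83, 10.80 and 10.24 on the control arrays and at 9.98, 9.08 and 9.35 on the MBD2 arrays. DHCR7 lay at 10.93, 10.89 and 9.89 on the control arrays and at 9.67, 8.95 and 9.06 on the MBD2 arrays. In each of the 3, control array 3 was the lowest control and MBD2 array 1 the highest MBD2 array, so that the groups were apart by 0.284, 0.26 and 0.223. Their log2 fold changes of -1.51, -1.15 and -1.35 had standard errors of 0.37, 0.28 and 0.35 and adjusted p-values of 0.107, 0.107 and 0.116 by limma. Without MBD2 array 1 all 3 were called lower, in a fit that called 1123 of all genes lower, against 296 with all arrays. Both probe sets of DHCR7 and both of SC5D were separated downward. The second of SC5D lay at only 3.71 to 4.17, near the 3.67 reached by control probe sets of a transcript that was not added.

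SQLE, EBP and NSDHL changed less, again without overlap between the groups. SQLE, the squalene epoxidase and a rate-limiting enzyme of the pathway, lay at 13.27, 13.22 and 12.59 on the control arrays and at 12.46, 12.05 and 12.33 on the MBD2 arrays. EBP, a sterol isomerase, lay at 10.94, 10.95 and 10.26 on the control arrays and at 10.06, 10.01 and 9.61 on the MBD2 arrays. NSDHL, a dehydrogenase that works with MSMO1 in removing methyl groups, lay at 9.28, 9.23 and 8.89 on the control arrays and at 8.48, 8.61 and 8.58 on the MBD2 arrays. The log2 fold changes of SQLE, EBP and NSDHL were -0.74, -0.82 and -0.58, and their adjusted p-values by limma of 0.164, 0.149 and 0.10 did not pass. All 3, together with TM7SF2, HSD17B7 and DHCR7, were called lower when control array 3 was left out. That fit called 386 of all genes lower, against 296 with all arrays.

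HSD17B7 and LSS were the members of this arm whose groups overlapped. HSD17B7, a ketosteroid reductase, lay at 9.97, 9.83 and 9.15 on the control arrays and at 9.17, 9.07 and 8.93 on the MBD2 arrays. Control array 3 lay among the MBD2 arrays, and the log2 fold change of -0.59 did not pass (adjusted p = 0.262 by limma). HSD17B7 is on a list of predicted mir-496 targets that the study chose on these arrays, so its direction is not independent evidence, and its single probe set carries an ending for shared sequence. LSS, the lanosterol synthase, lay at 9.41, 9.09 and 9.37 on the control arrays and at 9.82, 8.88 and 8.65 on the MBD2 arrays. MBD2 array 1 was above all controls and the other MBD2 arrays below them, with a log2 fold change of -0.18 and a 95% interval of -0.96 to 0.61.

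**Figure D2:**
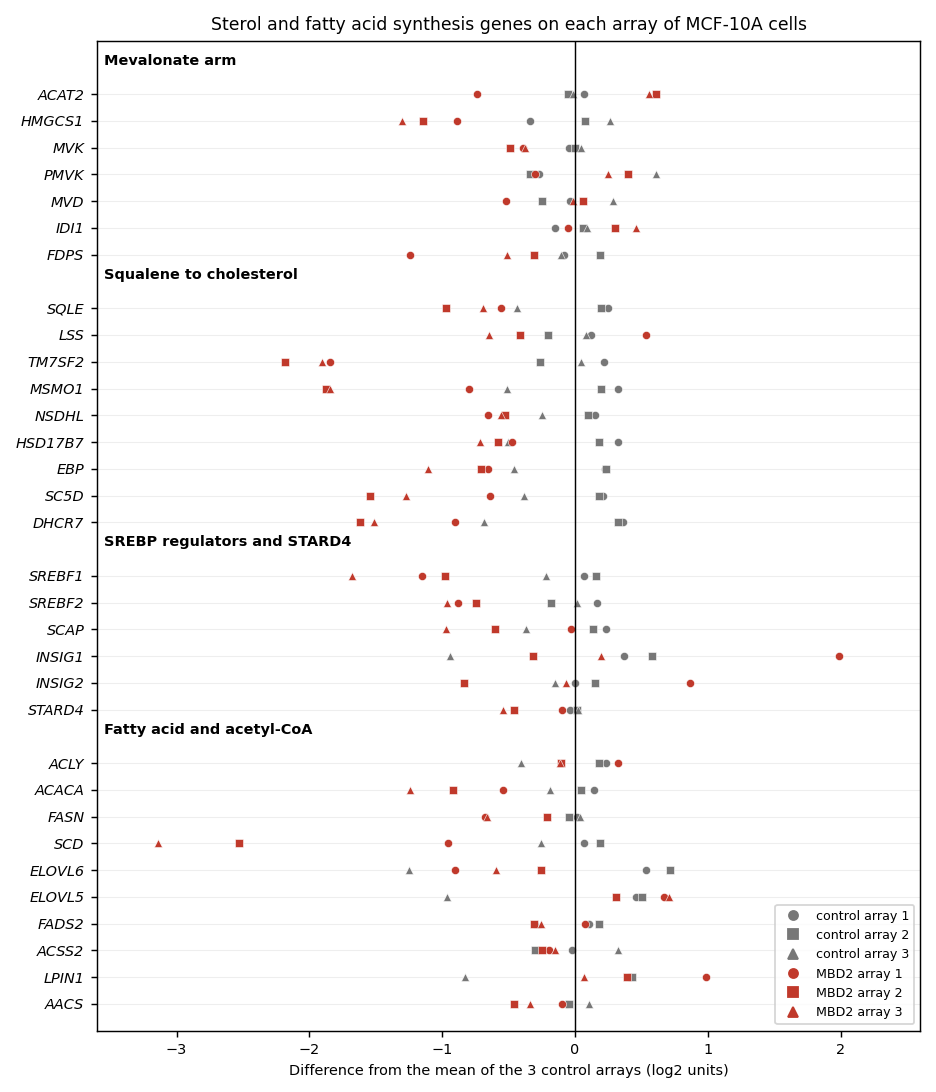
Difference of each array from the mean of the 3 control arrays (x axis, log2 units) for the 32 members, grouped by role; grey symbols are control arrays, red symbols MBD2 arrays, and circles, squares and triangles replicates 1, 2 and 3. TM7SF2 and SCD lie furthest left, and INSIG1 and SCD show the widest spread among MBD2 arrays.

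No member of fatty acid and acetyl-CoA metabolism was called. SCD, the desaturase that makes oleate from stearate, had the largest difference of all members. Its log2 values were 13.53, 13.65 and 13.21 on the control arrays and 12.50, 10.94 and 10.32 on the MBD2 arrays. Every MBD2 array was below every control array, but the MBD2 arrays spread over 2.18, against 0.442 for the controls. The mean was 13.46 ± 0.23 and 11.25 ± 1.12 (SD, n = 3 each), which is 4.62-fold or -2.21 in log2 units (standard error 0.55, adjusted p = 0.111 by limma). All 4 probe sets of SCD were separated downward, with differences of -1.70 to -2.21. As the mean of its probe sets SCD was called lower (-1.86, adjusted p = 0.0482 by limma), as it was without MBD2 array 1 (-2.83, adjusted p = 0.00398) and after centring on housekeeping genes (-2.49, adjusted p = 0.0475). The fit without MBD2 array 1 called 1123 of all genes lower, against 296 with all arrays. Centring moved the median of all genes from -0.0187 to -0.303. SCD was not called with the near-identical pairs averaged (-1.83, adjusted p = 0.718 by limma). Nor was it called when any other single array was left out (adjusted p = 0.148 to 0.315 by limma).

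ACACA and FASN carry out the committed step and the chain assembly of fatty acid synthesis. ACACA, the acetyl-CoA carboxylase, lay at 11.29, 11.19 and 10.96 on the control arrays and at 10.60, 10.23 and 9.91 on the MBD2 arrays. FASN, the fatty acid synthase, lay at 7.79, 7.73 and 7.81 on the control arrays and at 7.10, 7.56 and 7.12 on the MBD2 arrays. Both showed no overlap, and their log2 fold changes of -0.90 and -0.52 (standard errors 0.20 and 0.15) did not pass, with adjusted p-values of 0.088 and 0.160 by limma. AACS, which activates acetoacetate for lipid synthesis, lay at 10.13 to 10.29 on the control arrays and 9.73 to 10.09 on the MBD2 arrays, groups that were 0.038 apart.

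The elongases and the other genes of this group overlapped between conditions, and in several of them control array 3 was far from the other controls. ELOVL6, which elongates palmitate, lay at 10.07, 10.25 and 8.28 on the control arrays and at 8.63, 9.27 and 8.94 on the MBD2 arrays. ELOVL5, an elongase of polyunsaturated fatty acids, lay at 12.82, 12.87 and 11.40 on the control arrays and at 13.03, 12.67 and 13.07 on the MBD2 arrays. LPIN1, a phosphatidate phosphatase, lay at 8.33, 8.35 and 7.09 on the control arrays and at 8.91, 8.31 and 7.99 on the MBD2 arrays. In each of these 3 genes control array 3 was the lowest array of all. The log2 fold changes of ELOVL6, ELOVL5 and LPIN1 were -0.58, 0.56 and 0.48, with standard errors of 0.55, 0.42 and 0.42. ACLY, which supplies cytosolic acetyl-CoA from citrate, had log2 values of 11.79 to 12.42 on the control arrays and 12.08 to 12.52 on the MBD2 arrays, and its log2 fold change of 0.03 had a 95% interval of -0.51 to 0.58. ACSS2, which makes acetyl-CoA from acetate, and FADS2, a desaturase of polyunsaturated fatty acids, had log2 fold changes of -0.20 and -0.16, with intervals of -0.62 to 0.23 and -0.60 to 0.27.

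Within groups, the members did not take the same place on every array. Control array 3 was the lowest control for 19 of the 32 members, and MBD2 array 1 the highest MBD2 array for 19. The median difference of the members from the control mean was 0.133, 0.143 and -0.203 on control arrays 1, 2 and 3 and -0.531, -0.474 and -0.576 on MBD2 arrays 1, 2 and 3. On the MBD2 arrays 25, 26 and 26 members were below the control mean, against 10, 9 and 20 on the control arrays. The roles differed by array. For the squalene to cholesterol genes the median was -0.652, -0.971 and -1.10 on MBD2 arrays 1, 2 and 3, and -0.437 on control array 3. For the mevalonate arm it was -0.517 on MBD2 array 1 but 0.059 and -0.012 on MBD2 arrays 2 and 3. For the regulators it was -0.064 on MBD2 array 1 and -0.674 and -0.751 on the others.

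The median of mitosis genes lay further from the control mean than that of the 32 members on every array. On MBD2 arrays 2 and 3 it lay above the control mean, and the members' median below. Over 20 mitosis genes the median difference was 0.556, 0.455 and -1.05 on control arrays 1, 2 and 3. On MBD2 arrays 1, 2 and 3 it was -0.587, 1.68 and 1.49. Control array 3 and MBD2 array 1 were thus the low arrays of their groups for mitosis genes. The same medians over 18 housekeeping genes were 0.004, -0.088 and 0.152 on the control arrays and -0.263, 0.402 and 0.414 on the MBD2 arrays. For all genes tested they lay between -0.070 and 0.028. The part of these array differences in the members' results was not tested. Without both of these low arrays, control array 3 and MBD2 array 1, 15 members were called lower and 1, PMVK, higher, while 2110 of all genes were called lower and 3299 higher. That fit rests on the near-identical pairs, whose spread is small.

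**Figure D3:**
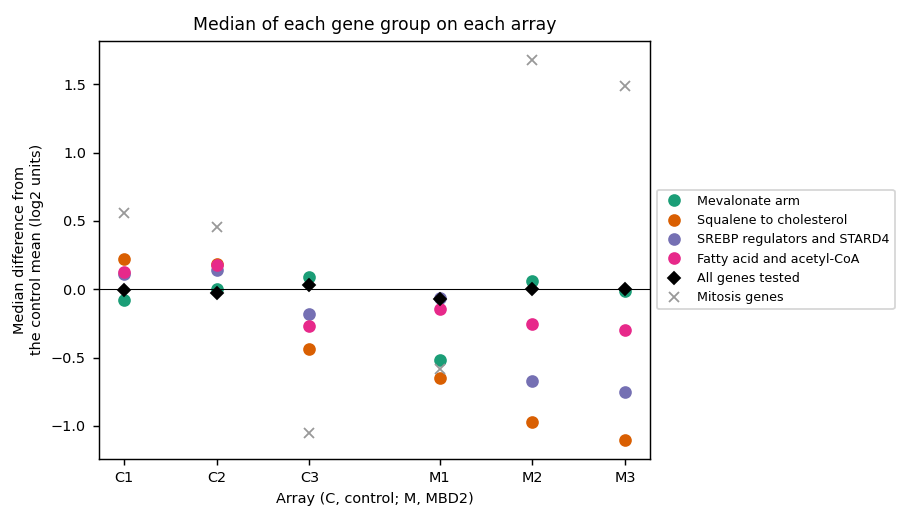
Median over each gene group of the difference from the control mean (y axis, log2 units) on control arrays C1 to C3 and MBD2 arrays M1 to M3 (x axis); coloured circles are the 4 roles, black diamonds all genes tested and grey crosses 20 mitosis genes. The squalene to cholesterol genes lie at -0.652 to -1.10 on the MBD2 arrays, and the mitosis genes are low on C3 and M1 and high on M2 and M3.

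Most members are read by several probe sets, which gives a check of the gene values by other probes on the same arrays. Of all 70 probe sets of the members, 28 (40.0%) were separated downward and 2 (2.86%) upward, against 12.3% and 10.4% of the 41091 probe sets with a single symbol. Of 20 members with more than 1 probe set, 5 (SREBF1, SCD, DHCR7, SC5D and NSDHL) had all of them separated downward. The second probe set of SC5D was dim, with a mean log2 value of 3.97. In 11 of the 20 all probe sets were below 0, in 1, INSIG1, all were above 0, and in 8 they lay on both sides. Such counts were not made over all genes with several probe sets, so they have no background here. The pair above all controls were a second probe set of LPIN1, at 0.98, and a dim one of LSS, at 0.20. Probe sets of 1 gene share the RNA of each array and are not replicates.

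Among 62 further genes of the pathway, listed by function, 2 were called higher and 4 lower. Their median log2 fold change was -0.138, and 16 of them (25.8%) were separated downward and 8 (12.9%) upward, against 14.6% and 10.4% of all genes. The calls were 3.23% of the list in the higher and 6.45% in the lower direction, against 1.25% and 1.5% of all genes. TECR, the enoyl reductase of long-chain fatty acid elongation, fell by 1.63 on the log2 scale (standard error 0.13, adjusted p = 0.0083 by limma), from 11.07 to 11.29 on the control arrays to 9.42 to 9.69 on the MBD2 arrays. The mean of its probe sets differed by -0.948, and by -0.265 in the probe set with no ending for shared sequence. ELOVL3, an elongase of very long saturated chains, fell by 1.54 (standard error 0.27, adjusted p = 0.0470 by limma), to 4.28 to 4.65 on the MBD2 arrays. DGAT1 and DGAT2, the enzymes of the final step of triglyceride synthesis, changed by -1.28 (standard error 0.21, adjusted p = 0.0397 by limma) and -1.04 (standard error 0.15, adjusted p = 0.0307). LPIN2, a phosphatidate phosphatase related to LPIN1, rose by 1.96 (standard error 0.27, adjusted p = 0.0282 by limma), from 5.82 to 6.47 on the control arrays to 7.65 to 8.43 on the MBD2 arrays. PRKAA2, a catalytic subunit of the AMP-activated kinase that phosphorylates acetyl-CoA carboxylase, rose by 1.55 (standard error 0.19, adjusted p = 0.0187 by limma), from 3.98 to 4.55 on the control arrays to 5.60 to 5.96 on the MBD2 arrays.

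By function, of 11 genes of SREBP processing and sterol-dependent degradation, 1 (PRKAA2) was called higher and none lower. None of the 9 genes of the isoprenoid branch or of the 13 genes of sterol transport, esterification and the LXR receptors was called, with medians of -0.00266 and -0.363. Of 18 genes of fatty acid supply, activation and elongation 2 (TECR and ELOVL3) were called lower. Of 8 genes of glycerolipid synthesis 1 (LPIN2) was called higher and 2 (DGAT1 and DGAT2) lower. The 3 genes measured among electron donors and partners of the sterol enzymes were not called. No pathway gene was called with the near-identical arrays averaged, or without control array 1 or control array 2. Without MBD2 array 1 the calls in the list were 11 lower, against 4 with all arrays. Over all genes that fit called 1123 lower and 1903 higher, against 296 and 248 with all arrays.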

How the data were processed

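Total RNA of control and MBD2 MCF-10A cells was labelled and hybridized to Affymetrix Human Genome U133 Plus 2.0 arrays. Values were deposited by the authors on the log2 scale after RMA normalization, for 54675 probe sets on 6 arrays (2.57 to 14.74); RMA and affy are given, without versions, in the submitters' processing notes. There are no counts behind array values, and precision is limited by the number of arrays. Probe sets were named through the platform annotation, with symbols updated through RefSeq (19735 of 19777 Entrez identifiers found); 41091 had 1 symbol, 1801 several and 11721 none, and 62 were controls. Only probe sets with 1 symbol were used, and the one with the highest mean stood for its gene.

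The MBD2 and control arrays were compared with lmFit and eBayes of limma 3.58.1 (R 4.3.3), with no term but the group and Benjamini-Hochberg adjustment over 19775 genes. A gene was called at an adjusted p under 0.05 and at least 1.5-fold. The methods of the study give no test for the arrays but a rule of a 1.5-fold rise or a ratio under 0.5 in each sample. That rule was applied to each MBD2 array against the control mean. The study's results also list repressed genes chosen by a p-value and a milder ratio, with no test named. That second rule was not applied here. The fit was run on simulated data with independent noise on each array, which cannot speak to the near-identical pairs. MBD2, all members and the called genes of the pathway list, by adjusted p, were named. The members, lists and alternatives were chosen with earlier results of these data known. Promoter windows were those of RefSeq for GRCh38.p14. Alternatives were the mean of all probe sets, a floor of 5 on a gene's mean, probe sets with no ending for shared sequence, a further quantile normalization, centring on housekeeping genes, trend and robust fitting in eBayes, a replicate block, each array left out, near-identical arrays averaged, control array 3 and MBD2 array 1 left out, and a block for the hybridization control level.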

Additional observations from a re-analysis of the deposited data

How the results depend on the processing

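The members' median log2 fold change stayed below 0 in every alternative run. It was -0.342 when all probe sets of a gene were averaged and -0.811 with centring on housekeeping genes, which moved the median of all genes to -0.303 and the calls over all genes from 248 higher and 296 lower to 137 and 402. Omission of 1 array gave -0.601 to -0.424. The number of members called lower, 4 with all arrays, was 2 for probe sets with no ending for shared sequence, 2 with quantile normalization, 1 with trend and robust fitting, 0 with near-identical arrays averaged, 15 without control array 3 and MBD2 array 1, 2 with the hybridization level as a block, 17 at an unadjusted p under 0.05 and 1 by the methods' fold rule. It ranged from 0 to 9 when 1 array was left out: 0 when the array omitted was control 1, control 2 or MBD2 array 3, 1 for MBD2 array 2, 6 without control array 3 and 9 without MBD2 array 1. Members called higher numbered 0 in all of these except 1 without control array 3 and MBD2 array 1.

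Of the pathway list, 2 genes were called higher and 4 lower. The higher count was 1 with housekeeping centring, 0 with averaged arrays, 5 without control array 3 and MBD2 array 1, 0 with the hybridization block, 7 at an unadjusted p under 0.05 and 4 by the fold rule, and 0 to 2 without 1 array. The lower count was 0 for probe sets with no ending, 0 with averaged arrays, 22 without control array 3 and MBD2 array 1, 1 with the hybridization block, 13 at an unadjusted p under 0.05 and 0 to 11 without 1 array. Over all genes the lower count without 1 array ranged from 17 to 1123. The causes of these changes were not tested. The block for hybridization level sets MBD2 array 1 alone against the controls. Across the alternatives that gave a fit, TM7SF2 was called in 11 of 15, SREBF1 in 6 of 16, SREBF2 in 5 of 16 and HMGCS1 in 3 of 16, below 0 in all.

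Between control and MBD2 arrays of the same replicate number, deviations from the group mean correlated at 0.167, -0.273 and 0.215 for numbers 1, 2 and 3. Not every array correlated best with its own number. Because each group holds a near-identical pair, these correlations cannot decide whether the numbers pair the arrays. With the replicate number as a block, 12 genes were called higher and 51 lower over the array, 1 member (TM7SF2) was called lower and 0 higher, and 0 and 0 pathway genes were called.

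Directions turned for members with small changes. With housekeeping centring ACAT2 was -0.142, PMVK -0.17, IDI1 -0.0497 and ACLY -0.251. With averaged arrays ACAT2 was -0.0742, PMVK -0.141 and INSIG2 0.244. With the hybridization block ACAT2 was -0.738, PMVK -0.3, IDI1 -0.0524, LSS 0.532, INSIG2 0.866 and FADS2 0.0747. Without control array 3 and MBD2 array 1 MVD was 0.167, INSIG1 -0.533, ACLY -0.315 and LPIN1 -0.188. The mean of all probe sets gave LSS 0.00577 and FADS2 0.0535, and probe sets with no ending gave IDI1 -0.0398 and FADS2 0.271. Without 1 array ACAT2 ran from -0.0916 to 0.583, PMVK from -0.0541 to 0.417, MVD from -0.283 to 0.0232, LSS from -0.53 to 0.0585, INSIG1 from -0.0615 to 1.09, INSIG2 from -0.453 to 0.4 and ACLY from -0.17 to 0.148.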
